A study of Arabidopsis thaliana with 4 samples.

Results

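NdhN, NdhL and NdhS are nuclear genes for subunits of the chloroplast NADH dehydrogenase-like (NDH) complex, and their transcripts were followed in detached Arabidopsis thaliana leaves fed sucrose or sorbitol. They were chosen by symbol in the platform annotation, and the probe set of each was selected on brightness, as the highest mean log2 intensity among its single-gene probe sets. Every symbol had 1 such probe set, so brightness decided nothing between probe sets, and the 3 genes are 3 of 13350 genes with a single-gene probe set. The loci are AT5G58260 for NdhN, AT1G70760 for NdhL and AT4G23890 for NdhS. The genes were proposed with earlier results of these arrays known, so their sucrose values are a description and not independent evidence of a direction.

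Leaves came from wild-type plants of ecotype Col-0 that had not flowered and were grown with a 14 h day and a 10 h night. They were full-grown source leaves, the leaves that export sugar, cut when the day ended. The 2 sucrose arrays are from leaves kept in the dark for 13 h with their petioles in 100 mM sucrose, made up in 2 mM MES buffer, and the 2 sorbitol arrays from leaves treated alike with 100 mM sorbitol as the control. Each array is an Affymetrix ATH1 array hybridised with 1 biotin-labelled sample, and leaves from the start of the incubation were not analysed here, so "lower" below means lower than in sorbitol-fed leaves. Nothing in the labels tells whether the replicates are separate plants or harvests. The p-values therefore cover the spread among the 4 arrays alone, and that spread may be technical.

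The chloroplast NDH complex sits in the thylakoid membrane, is bound to photosystem I, and passes electrons from ferredoxin to plastoquinone. It thereby carries a part of the cyclic electron flow around photosystem I and of chlororespiration in darkness. Its subunits come from both genomes, with a membrane arm and part of the stromal arm made in the plastid and the remaining subunits encoded in the nucleus. NdhN and NdhL belong to subcomplex A, which holds the stromal arm, and NdhL is a small membrane protein. NdhS lies at the electron donor-binding end and carries the high-affinity site for ferredoxin.

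All 3 transcripts were lower in sucrose-fed leaves on both replicate numbers, by 5.67-fold for NdhN, 5.49-fold for NdhL and 2.80-fold for NdhS. In each gene both sucrose values lay below both sorbitol values, as they did for 26.2% of all probe sets tested. None of the 3 passed the test over all probe sets (0.923% passed as lower), which was limma on log2 intensities without a replicate block, at a Benjamini-Hochberg adjusted p under 0.05. All 3 had an unadjusted p under 0.05, as had 10.8% of the probe sets tested in the lower direction.

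NdhN had deposited intensities of 153.3 and 71.7 on sucrose 1 and sucrose 2, against 452.5 and 780.6 on sorbitol 1 and sorbitol 2. The lower sucrose value and the higher sorbitol value both came from replicate 2, so that the gap between groups was widest there. On the log2 scale the level was 6.71 ± 0.78 in sucrose and 9.22 ± 0.56 in sorbitol (SD, n = 2 each). The log2 change, sucrose minus sorbitol, was -2.50 ± 0.48 SE, with a 95% interval of -3.65 to -1.35 (limma adjusted p = 0.0645). With sucrose 1 left out, which keeps only sucrose 2 of that group, the change was -3.05. Without sucrose 2, sorbitol 1 or sorbitol 2 the changes were -1.95, -2.90 and -2.11, and each of these fits also keeps only 1 array of a group.

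NdhL had intensities of 384.3 and 114.8 on sucrose 1 and sucrose 2, against 1112.8 and 1194.9 on sorbitol 1 and sorbitol 2. The sorbitol values were close to each other, and most of the spread of this gene lay between the sucrose arrays. Its log2 level was 7.71 ± 1.23 in sucrose and 10.17 ± 0.07 in sorbitol (SD, n = 2 each). The log2 change was -2.46 ± 0.57 SE, with a 95% interval of -3.83 to -1.09 (limma adjusted p = 0.0920). The size of this change varied with the sucrose array used. The log2 change of NdhL was -1.59 without sucrose 2 and -3.33 without sucrose 1. Without sorbitol 1 or sorbitol 2 it was -2.51 or -2.41. Each of these fits keeps only 1 array of a group.

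NdhS had intensities of 479.6 and 471.2 on sucrose 1 and sucrose 2, against 1118.5 and 1578.9 on sorbitol 1 and sorbitol 2. Here the sucrose arrays were nearly equal and the spread lay between the sorbitol arrays. The log2 level was 8.89 ± 0.02 in sucrose and 10.38 ± 0.35 in sorbitol (SD, n = 2 each). The log2 change was -1.48 ± 0.31 SE, with a 95% interval of -2.24 to -0.72 (limma adjusted p = 0.0786).

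**Figure D1:**
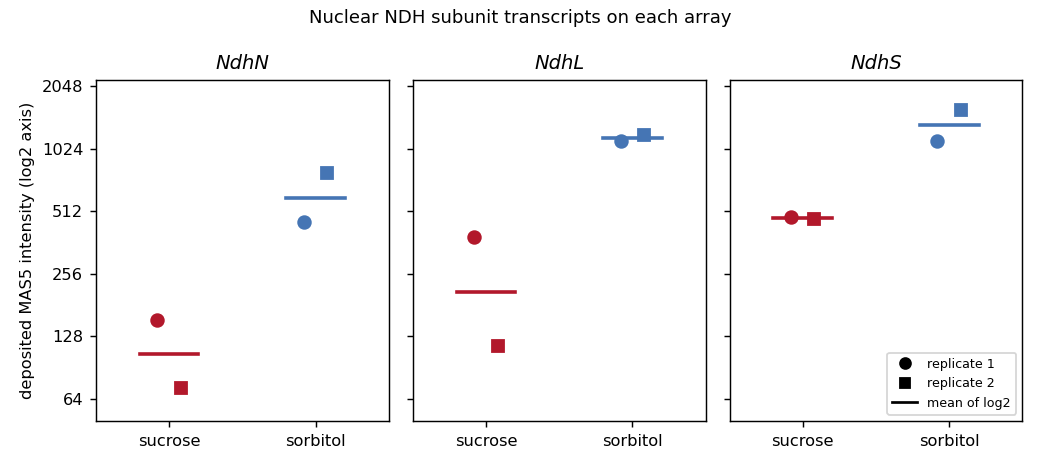
Deposited MAS5 intensity (log2 axis) of NdhN, NdhL and NdhS on each of the 4 arrays, sucrose left and sorbitol right; circles are replicate 1, squares replicate 2, and lines the mean of the log2 values. In all 3 genes both sucrose points lie below both sorbitol points, and sucrose 2 lies well below sucrose 1 for NdhN (71.7 against 153.3) and NdhL (114.8 against 384.3) but not for NdhS (471.2 against 479.6).

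Counts over the 13648 probe sets tested give the background for these values. Below the limma threshold (adjusted p under 0.05), 126 or 0.923% were lower in sucrose and 50 or 0.366% higher, and 0 of the 3 NDH genes were among them. Lower by any amount were 48.4%, and lower in both replicate numbers 34.9%, against 3 of 3 NDH genes in each case. The absence of overlap alone was common on these arrays, with 3570 probe sets lower in this way. At least 2-fold lower in both replicate numbers were 5.52%, and all 3 genes. Of the probe sets tested, 123 changed as far down as NdhN or farther, 130 as far as NdhL and 581 as far as NdhS, each count including the gene itself. The genes were well above the dim end of the scale. By mean log2 level NdhN lay at percentile 87.9 of the 22746 probe sets other than controls, NdhL at 94.5 and NdhS at 97.2.

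**Figure D2:**
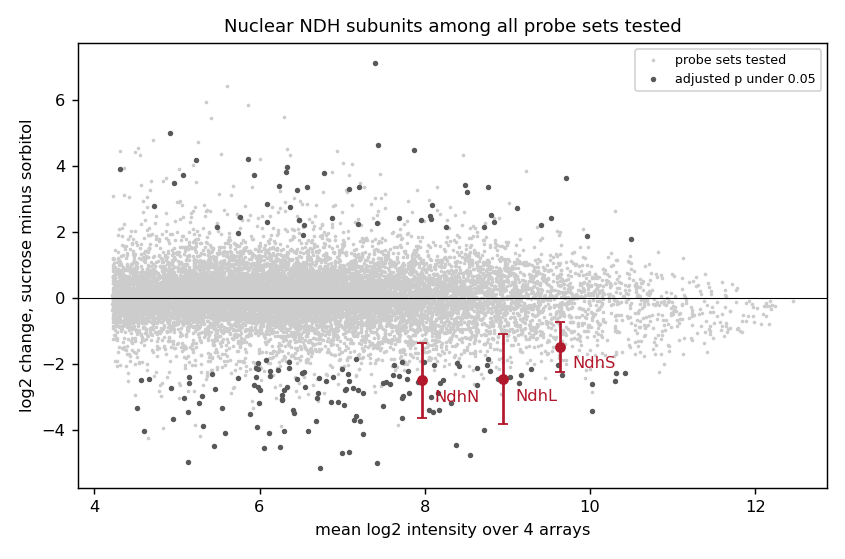
Log2 change (sucrose minus sorbitol) against mean log2 intensity for the 13648 probe sets tested, with those at an adjusted p under 0.05 in dark grey and the 3 NDH genes in red with their 95% intervals. NdhN (-2.50) and NdhL (-2.46) lie among the strongly lowered probe sets of their brightness and NdhS (-1.48) nearer the bulk, and all 3 intervals end below 0.

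With each sucrose array set against the sorbitol array of the same number, the changes varied in size, more for NdhN and NdhL than for NdhS. The labels do not say that arrays of the same number belong together. In replicate 1 the log2 changes were close together, at -1.56 for NdhN, -1.53 for NdhL and -1.22 for NdhS. In replicate 2 they were -3.44, -3.38 and -1.74. The sucrose level was thus 33.9% of the sorbitol level for NdhN in replicate 1 and 9.19% in replicate 2. For NdhL these shares were 34.5% and 9.61%, and for NdhS 42.9% and 29.8%.

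NdhN and NdhL had nearly the same change within each replicate number. The change of NdhN minus that of NdhL was -0.03 in replicate 1 and -0.06 in replicate 2. Within a group they moved less alike, replicate 2 minus replicate 1 in sorbitol being 0.79 for NdhN and 0.10 for NdhL. NdhN minus NdhS was -0.34 in replicate 1 and -1.70 in replicate 2, so the distance of NdhS from the other two came mainly from replicate 2. These differences between genes were not tested.

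Under this matching of arrays by number, the gap between replicates was large for NdhN and NdhL when set beside the rest of the table. The change in replicate 2 minus that in replicate 1 was -1.88 for NdhN, a value reached or exceeded downward by 0.425% of the probe sets tested. It was -1.85 for NdhL, with 0.506% of the probe sets as low. For NdhS it was -0.52, with 21.8% as low. This contrast was picked after the values were seen, and it holds only for arrays matched by number, which the labels do not state as pairs.

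The array sucrose 2, on which NdhN and NdhL were lowest, also stood apart in an RNA quality measure. It had the least excess of 3 prime over 5 prime signal for the older GAPDH control, not the most. For the older GAPDH control, the log2 value of the 3 prime probe set minus that of the 5 prime one came to 1.43 on sucrose 1 and 0.20 on sucrose 2, against 1.85 on sorbitol 1 and 1.44 on sorbitol 2. The same difference for the older actin control did not set sucrose 2 apart, with 4.12 on sucrose 1 and 3.35 on sucrose 2, against 3.26 on sorbitol 1 and 3.43 on sorbitol 2. Without sucrose 2, which keeps only sucrose 1 of that group, the log2 changes were -1.95 for NdhN, -1.59 for NdhL and -1.47 for NdhS. The part of RNA quality in the values of sucrose 2 was not tested.

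Markers of leaf mesophyll moved in the same direction as the NDH genes. Of 7 such markers 5 had a single-gene probe set, and none was at 0 on any array. Their summed intensity was 6757 on sucrose 1 and 4303 on sucrose 2, against 17052 on sorbitol 1 and 15200 on sorbitol 2. All 5 were lower in sucrose, beside 48.4% of all probe sets tested, and their median log2 change was -1.75. In limma 2 of them passed as lower, beside 0.923%. They were the Calvin cycle kinase PRK at -2.28 (limma adjusted p = 0.0487) and the photosystem I subunit PSAN at -2.26 (limma adjusted p = 0.0497). NdhN and NdhL therefore lay below the median of these markers and NdhS above it. In whole leaves fewer cells of a type and less RNA per cell cannot be told apart. The guard cell marker FMA had 39.5 and 37.0 on sucrose 1 and sucrose 2, against 41.3 and 55.6 on sorbitol 1 and sorbitol 2. The phloem sucrose exporter SWEET11 had 399.3 and 368.8 on sucrose 1 and sucrose 2, against 1829.4 and 1098.5 on sorbitol 1 and sorbitol 2. Epidermis, xylem and root markers had no single-gene probe set and were not analysed here.

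The remaining nuclear NDH genes could be followed only in part. A list held 20 nuclear genes for NDH subunits and for the proteins that link the complex to photosystem I. Of these, 4 had a single-gene probe set. They include NdhN, NdhL and NdhS, so the counts and the median of the 4 mostly repeat those genes. All 4 were lower in sucrose, beside 48.4% of all probe sets tested. In limma 0 passed as lower, beside 0.923%, and 4 had an unadjusted p under 0.05, beside 10.8%. The fourth, AT2G04039, was entered by locus and has no symbol in the name tables. It had 366.4 and 227.5 on sucrose 1 and sucrose 2, against 571.6 and 692.1 on sorbitol 1 and sorbitol 2. Its log2 change was -1.12 ± 0.35 SE (limma adjusted p = 0.154), smaller than that of each of the 3 named subunits, and again larger in replicate 2 (-1.61) than in replicate 1 (-0.64). The median of the 4 was -1.97, beside 0.02 for all probe sets tested.

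Genes that help to build the complex or to process its plastid transcripts were also lower. Of 12 such genes 6 had a single-gene probe set and 4 were bright enough to be tested. All 4 were lower in sucrose, at a median of -0.88, beside 48.4% of all probe sets tested. In limma 0 passed as lower, beside 0.923%, and 1 of 4, Cpn60beta4, had an unadjusted p under 0.05, beside 10.8%. Cpn60beta4, a chaperonin subunit that folds the plastid-made NdhH protein, had the largest change at -1.21. CRR42 and CRR41, which act in the assembly of subcomplex A, had -1.11 and -0.65. CRR21, a pentatricopeptide repeat protein needed to edit the ndhD transcript, had -0.55. In all 4 the change was larger in replicate 2, as it was for the 3 subunits. CRR42, for instance, had -0.17 in replicate 1 and -2.04 in replicate 2. PGRL1B, the 1 measured of 6 listed genes for the other route of cyclic electron flow, ferredoxin and the plastid terminal oxidase, had -0.24 in replicate 1 and -1.14 in replicate 2, and did not pass (limma adjusted p = 0.348).

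Nuclear subunits of the photosystems, the cytochrome b6f complex and the ATP synthase gave a further comparison. Of 28 such genes 6 were measured, and all 6 were lower, beside 48.4% of all probe sets tested. Their median log2 change was -1.08. In limma 1 passed as lower, beside 0.923%, and this was PSAN, which is also among the mesophyll markers above. The smallest change was that of the photosystem I subunit PSAE-1, at -0.54, and the largest that of PSAN. NdhN and NdhL were lower than each of these 6 in mean log2 change, and NdhS lower than 5 of them. Of the 6 genes, 2 were at least 2-fold lower in both replicate numbers, against all 3 NDH subunits and 5.52% of all probe sets tested. These lists hold only genes with a single-gene probe set, and the difference between them was not tested.

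**Figure D3:**
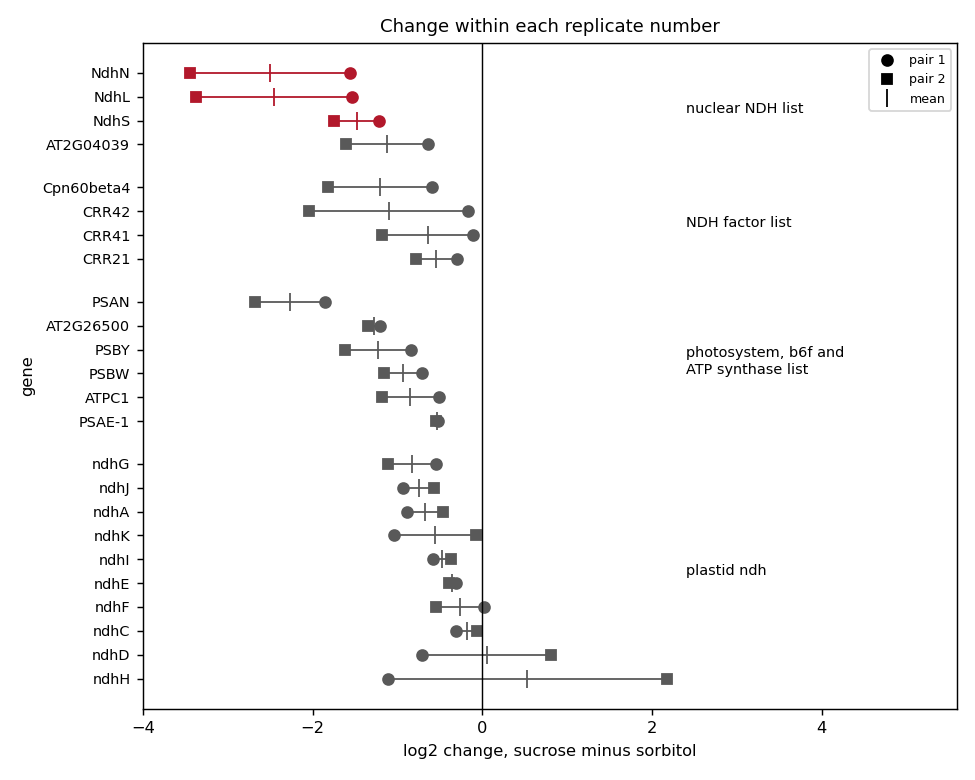
Log2 change (sucrose minus sorbitol) in replicate 1 (circles, pair 1) and replicate 2 (squares, pair 2), with the mean as a tick, for the 3 NDH subunits in red and for other listed genes in grey. NdhN and NdhL have the lowest means and a long span between pairs (-1.56 to -3.44 for NdhN), whereas ndhD, ndhF and ndhH of the plastid have pairs on either side of 0.

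The plastid-encoded partners had smaller mean changes. Of 11 plastid ndh genes 10 had a single-gene probe set, ndhB being left out because its probe set matches both copies. Of the 10, 8 were lower and 2 higher in sucrose, at a median log2 change of -0.42, a range of -0.83 to 0.53, and 0 past the limma threshold or at an unadjusted p under 0.05. Both sucrose values lay below both sorbitol values for 3 of the 10, ndhA, ndhI and ndhJ, beside 26.2% of all probe sets tested. The ndhI transcript, for a stromal-arm subunit that carries iron-sulphur clusters, had 2636 and 2630.3 on sucrose 1 and sucrose 2, against 3951.5 and 3394.7 on sorbitol 1 and sorbitol 2. The ndhJ transcript, for a further stromal-arm subunit, had 925.8 and 764.5 on sucrose 1 and sucrose 2, against 1770 and 1132.1 on sorbitol 1 and sorbitol 2. The log2 change was -0.48 for ndhI and -0.75 for ndhJ, and no plastid ndh gene was as low as any of the 3 nuclear subunits in mean change.

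Several plastid ndh transcripts separated the arrays by replicate number more than by sugar. In 5 of the 10 genes (ndhD, ndhE, ndhF, ndhG and ndhH) the replicate 2 array was at least 2-fold below the replicate 1 array in both groups. The share of all probe sets tested that did so was not computed. Plastid-encoded genes other than ndh also had lower median log2 levels on replicate 2, at 9.74 on sucrose 1 and 8.99 on sucrose 2. In sorbitol these medians were 10.42 on sorbitol 1 and 8.84 on sorbitol 2. The ndhE transcript had 524.3 and 28.8 on sucrose 1 and sucrose 2, against 651 and 37.9 on sorbitol 1 and sorbitol 2. The nuclear subunits showed no such split. Replicate 2 minus replicate 1 was -1.10 in sucrose and 0.79 in sorbitol for NdhN, -1.74 and 0.10 for NdhL, and -0.03 and 0.50 for NdhS. Within the replicate numbers, the median log2 change of the plastid ndh list was -0.65 in replicate 1 and -0.38 in replicate 2. Of the 10 genes, 7 were lower in both, beside 34.9% of all probe sets tested. Plastid-encoded genes other than ndh were similar, with medians of -0.65 in replicate 1 and -0.28 in replicate 2. Of their 59 probe sets 36 were lower in both, and the median of their mean changes was -0.34. Leaving out 1 array sets unequal replicate numbers against each other. The median of the plastid ndh list was then 0.52 without sorbitol 1, 0.33 without sucrose 2, -0.60 without sucrose 1 and -1.22 without sorbitol 2. The median of the 3 nuclear subunits lay between -3.05 and -1.59 in these 4 fits. Ribosomal RNA controls separated the arrays by the same number: the 25S control had 1255 and 56.6 on sucrose 1 and sucrose 2, against 2163 and 14.4 on sorbitol 1 and sorbitol 2. Its part in the plastid values was not tested.

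**Figure D4:**
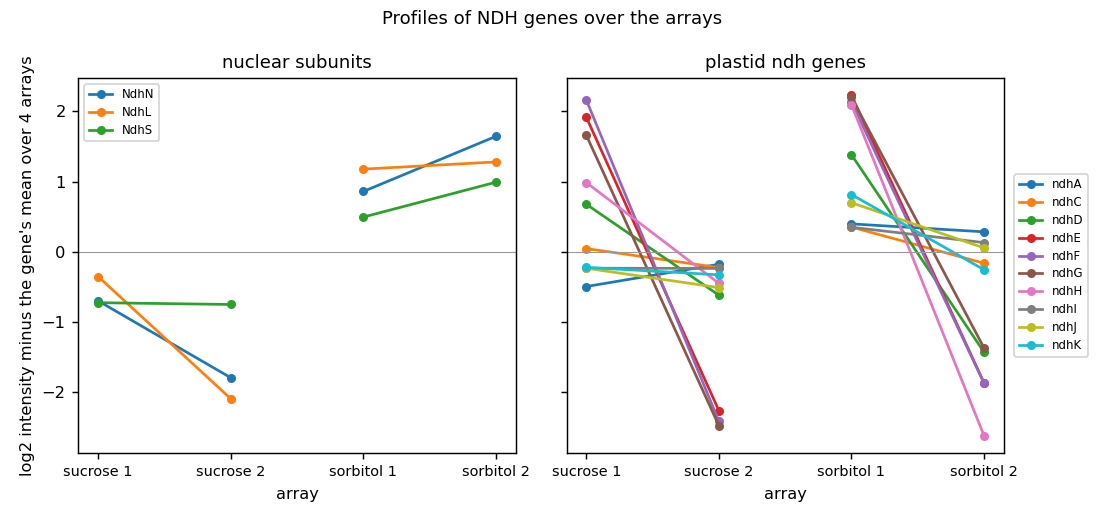
Log2 intensity of each gene minus its mean over the 4 arrays, for the 3 nuclear subunits (left) and 10 plastid ndh genes (right), with arrays in the order sucrose 1, sucrose 2, sorbitol 1 and sorbitol 2. The nuclear genes lie below 0 on both sucrose arrays and above 0 on both sorbitol arrays, whereas ndhE, ndhF and ndhG lie high on both replicate 1 arrays and low on both replicate 2 arrays.

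Genes with the most similar profiles were sought among 7354 other tested probe sets with a single gene, by the root mean square difference of log2 values centred on each gene's mean over the 4 arrays. For NdhN the nearest were AT1G65230 at 0.10, AT3G48200 at 0.12 and AT5G56850 at 0.17 log2 units. For NdhL they were AT1G31920 at 0.14, AT2G29320 at 0.15 and AT3G47560 at 0.18. For NdhS they were AT1G14345 at 0.04, AT1G66330 at 0.04 and AT2G03550 at 0.08. With 4 arrays this likeness is a description only. NdhL ranked 20 among the genes nearest to NdhN, at 0.33, and NdhS ranked 207, at 0.64. Seen from NdhS the other subunits were far down the order, NdhN at rank 1892 and NdhL at rank 3322 of 7354.

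The direction of the 3 changes was the same under the processing settings tried, though most of these could not have reversed it. The filters, the variance model and the raising of dim values left the log2 changes of these genes as they were. The pseudocount kept the order of their values over the arrays. Only the scalings, quantile normalisation and median centring, could have changed the direction. In filters, scalings, the pseudocount, the variance model and the raising of dim values, NdhN ranged from -2.56 to -2.44, NdhL from -2.52 to -2.40 and NdhS from -1.54 to -1.44 in log2 change. Leaving out 1 array could not reverse a sign either, because both sucrose values lay below both sorbitol values in each gene. When arrays were left out in turn, the ranges were -3.05 to -1.95 for NdhN, -3.33 to -1.59 for NdhL and -1.73 to -1.23 for NdhS. NdhS was thus the smallest of the 3 changes in the fit of all arrays and the one whose value moved least in log2 units with the choice of arrays.

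**Figure D5:**
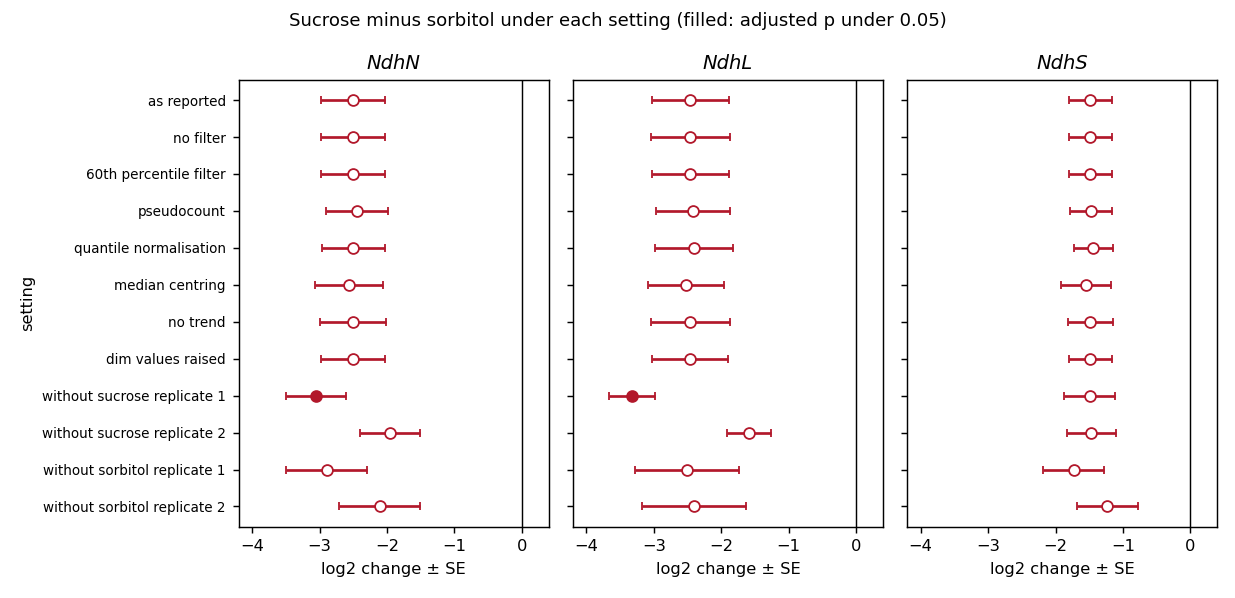
Log2 change (sucrose minus sorbitol) ± SE of NdhN, NdhL and NdhS as reported and under 11 other settings, one per line, filled where the limma adjusted p was under 0.05; the fit with a replicate block is not drawn and is given with the alternatives at the end. Each value drawn lies below 0, and filled points appear for NdhN (-3.05) and NdhL (-3.33) without sucrose replicate 1. That fit keeps only 1 sucrose array.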

How the data were processed

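The deposited table holds 1 intensity per probe set and array, made with MAS5 per the submitters' processing notes, with its version and settings not given in the sources used here. The deposited intensities are linear, and their 2% trimmed mean was 100.0 on every array, so no further scaling was applied. Median intensities were 30.6 to 35.6, and the number of arrays limits the precision.

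The 64 control probe sets were left out. Intensities were floored at 0.1 and converted to log2, and the 13648 probe sets at or above the 40th percentile of mean log2 value (an intensity of 18.6) were tested with limma 3.58.1 in R 4.3.3 (lmFit, eBayes with trend), tested on simulated data beforehand. Names came from the platform annotation (13513 single-gene probe sets, 13436 updated through TAIR10.1). Levels are mean ± SD.

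The named genes are the 3 subunits, measured members of 5 gene lists and of marker lists, and the 3 nearest profiles per subunit. Members and lists were chosen with earlier results of these data known. Alternatives were other filters, scalings, a pseudocount of 5.3, no trend, dim values raised to 9.3 (the highest of 27 Bacillus controls), a replicate block and each array left out. A lone array of a group took the other group's spread. Sequences were not used here.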

Additional observations from a re-analysis of the deposited data

How the results depend on the processing

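All 3 genes stayed lower in sucrose under each of the 12 alternatives tried, but most of these could not have reversed the direction. The filters, the fit without trend, the raising of dim values and the block left the log2 changes of these genes as they were. Neither the pseudocount nor leaving out 1 array can reverse a sign where both sucrose values lie below both sorbitol values. Only quantile normalisation and median centring could have done so. The alternative of a mean over probe sets gave no value because each gene has 1. Log2 changes without 1 array ranged from -3.05 to -1.95 (NdhN), -3.33 to -1.59 (NdhL) and -1.73 to -1.23 (NdhS), with limma adjusted p from 0.0204 to 0.310, 0.0128 to 0.348 and 0.0698 to 0.397. With the replicate number as a block, the changes keep their values of -2.50, -2.46 and -1.48 and all 3 passed (limma adjusted p = 0.00117, 0.00121 and 0.00593). Whether the number marks a batch is not in the labels. Over the probe sets tested, arrays of 1 number deviated from their group means with a correlation of 0.43, which in 2 pairs leaves the pairing unsettled. Probe sets higher and lower in sucrose (50 and 126) numbered 1130 and 1206 with the block, 1 and 2 with no filter, 26 and 77 without the trend, and 21 and 71 after quantile normalisation. The 60th percentile filter gave 83 higher, and median centring 196 lower. Without 1 array the counts were 0 to 403 higher and 0 to 545 lower, and the cause of this range was not tested. Outside the block and the left-out arrays, adjusted p ranged from 0.0518 to 0.138 (NdhN), 0.0746 to 0.181 (NdhL) and 0.0646 to 0.160 (NdhS).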
